A study of Mus musculus with 2 samples.

Results

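A set of 49 genes whose products copy the genome during S phase, or prepare and control it, was followed in the mouse neural tube, the embryonic structure that forms brain and spinal cord. They were chosen by gene symbol as subunits of 12 functional groups, from the origin recognition complex to G1/S regulators. All 49 were found in both gene tables, among 43346 mouse genes in all. The series holds total RNA from the neural tube of B6NCrl embryos at day 13.5, with male and female embryos pooled. The 2 libraries, biological replicates 2 and 1, form a single group, so no condition was compared and each difference is between these libraries. Each library started from 10 ng of RNA longer than 200 nt with added spike-in RNA. The labels give both the same donor record and do not say whether they came from separate embryos, so the spread between them may be technical.

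Copying of DNA is prepared in G1, when the origin recognition complex, Cdc6 and Cdt1 load the MCM2-7 helicase onto origins. Kinases then recruit Cdc45 and the GINS complex, which turn the helicase on, and the polymerases follow with their sliding clamp. Many of these genes are transcribed as cells enter S phase, under E2F factors. In the embryonic neural tube the dividing progenitors lie next to the lumen, and neurons that have left the cell cycle lie outside them. The libraries held both kinds of cell by their markers, with 11 of 12 progenitor genes and 10 of 10 neuron genes at 1 TPM or more in both. In bulk tissue, fewer dividing cells and less RNA per dividing cell cannot be told apart.

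Replicate 2 held 22311849 estimated reads and replicate 1 held 34125110. The 49 replication genes took 43439 reads in replicate 2 and 58957 in replicate 1, or 0.206% of the reads on genes in replicate 2 and 0.183% in replicate 1. TPM, a measure of transcript abundance scaled to a fixed sum, corrects for length and was used to compare levels between genes. All 49 genes reached 1 TPM in both libraries, and 38 reached 10 TPM. The median of their mean TPM was 25.02, against 11.5 over the 17428 genes whose mean count reached 10. Over the 14852 protein-coding genes among those, the class of all 49, the median was 14.9. Only 6 genes reached 50 TPM in both libraries, and 6 stayed under 5 TPM in both. Across the 49 genes, log2 TPM of the libraries had a Pearson correlation of 0.99, which is a description over genes of the same pair of libraries.

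Most of the 49 genes had more RNA in replicate 2. On reads scaled by the trimmed mean of M values (TMM), 44 of 49 genes had a log2 ratio of replicate 2 over replicate 1 above 0. The median ratio was 0.15 on the log2 scale, against 0.00037 over all 17428 genes tested. Reads of the libraries were compared by an exact binomial test (two-sided) against counting noise only, with Benjamini-Hochberg adjustment over all genes tested. At an adjusted p under 0.05, 20 of 49 genes (40.8%) were higher in replicate 2, where 12.8% of all genes tested were. None of the 49 was lower in replicate 2 by that test, against 11.8% of all genes tested, and 29 genes had an unadjusted p under 0.05. These shares were not matched for reads per gene. The share of all genes called higher moved with the filter on counts, from 8.13% without it to 14.6% at a mean count of 50. Differences were small. With a fold of 1.5 required as well, 1 replication gene (2.04%) was higher and 0 were lower, where 2.51% of all genes tested were higher and 1.56% lower. With a fold of 2 required, 0 were left in either direction, beside 1.46% of all genes tested higher and 0.792% lower. When libraries were scaled by their spike-ins, 32 of 49 passed, with 26.9% of all genes tested higher in replicate 2.

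**Figure D1:**
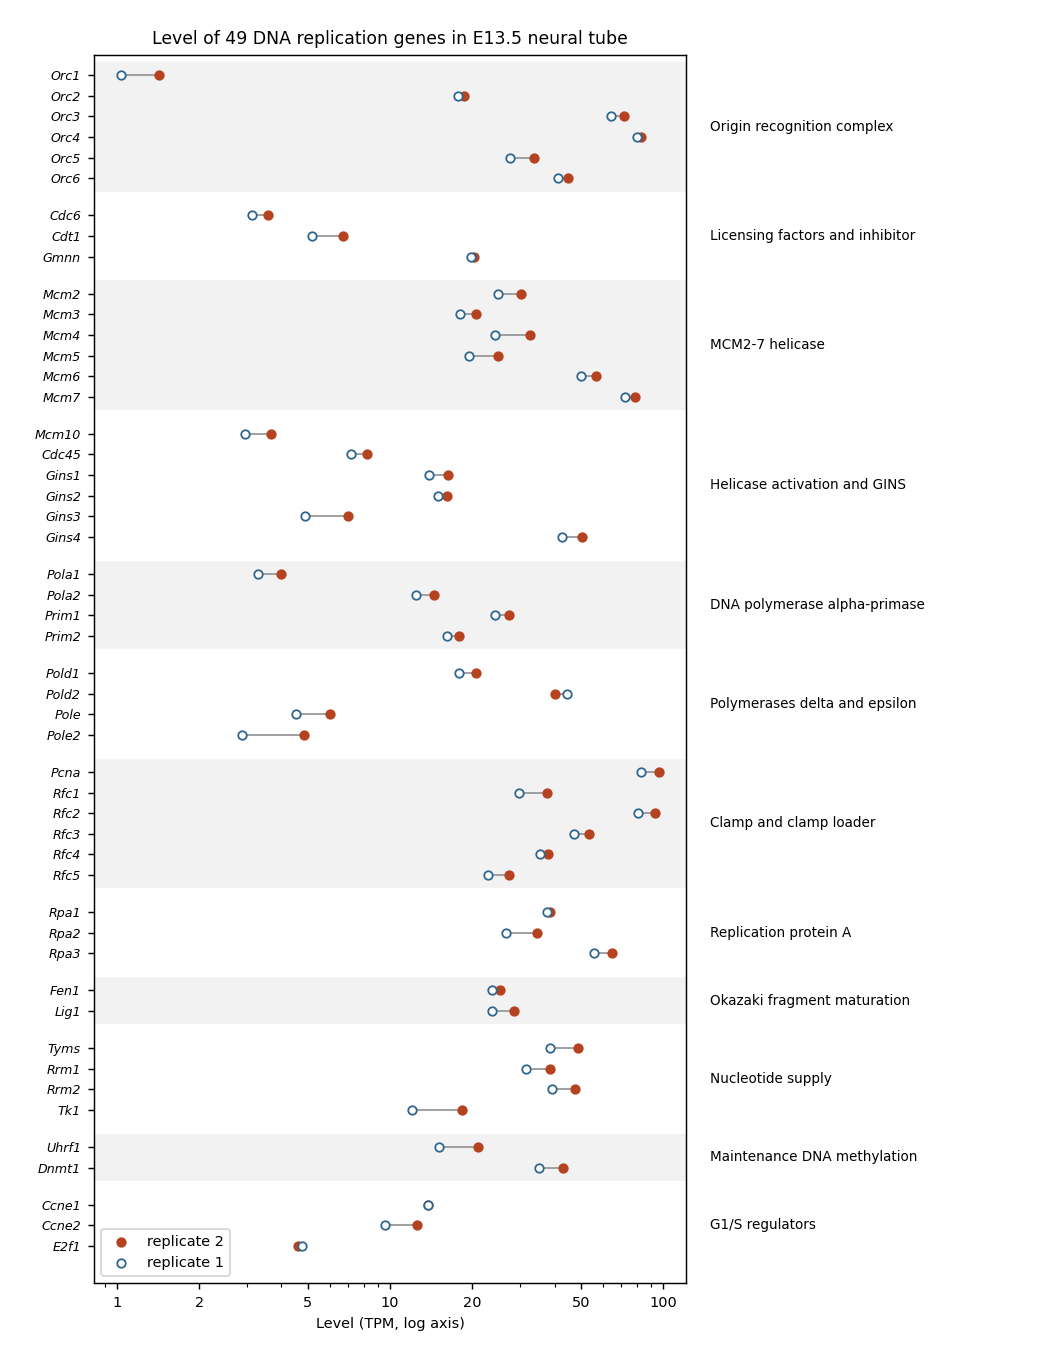
Level of each of the 49 genes in TPM on a log axis, grouped by role, with filled points for replicate 2 and open points for replicate 1. The genes span 1.23 TPM for Orc1 to 89.8 TPM for Pcna as means, and the replicate 2 point lies to the right for 47 of 49.

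The origin recognition complex, which marks the places where replication can start, had the widest range of levels. Orc1, the subunit whose amount is known to swing with the cell cycle in mammals, had 1.43 TPM in replicate 2, against 1.03 TPM in replicate 1, the lowest of all 49 genes. Orc4 reached 83.2 TPM in replicate 2 against 80.2 TPM in replicate 1. The mean levels of these subunits of 1 complex differed by 66.5-fold. Orc3 had 71.8 TPM in replicate 2 and 64.4 TPM in replicate 1, and Orc6, the least conserved subunit, had 44.6 TPM in replicate 2 and 41.2 TPM in replicate 1. Orc5 had 33.7 TPM in replicate 2 and 27.5 TPM in replicate 1, while Orc2 had 18.6 TPM in replicate 2, against 17.8 TPM in replicate 1. The order of the 6 subunits was the same in both libraries. Orc4 alone passed the test, with a log2 ratio of 0.12 ± 0.05 (counting SE; exact binomial test, adjusted p = 0.033), a call lost without the filter on low counts. Orc1 had a ratio of 0.60 ± 0.26 on 59.7 reads in replicate 2 and 59.6 in replicate 1, and did not pass (adjusted p = 0.086, exact binomial test). For the summed reads of the complex the log2 ratio was 0.10, with a 95% exact binomial interval of 0.06 to 0.15 that covers counting error only.

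The licensing factors were among the lowest genes. Cdc6, the ATPase that helps load the helicase, had 3.58 TPM in replicate 2 and 3.12 TPM in replicate 1. Cdt1, which brings the helicase to the origin, had 6.71 TPM in replicate 2 and 5.16 TPM in replicate 1. Gmnn, the geminin that blocks Cdt1 outside G1, stood above both at 20.3 TPM in replicate 2 and 19.8 TPM in replicate 1. By mean TPM, geminin stood at 5.98 times Cdc6, the lowest of these 3 genes. None of these 3 genes passed the test, and their summed log2 ratio of 0.11 had an interval of -0.05 to 0.26.

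The MCM2-7 helicase, a ring of 6 different subunits that unwinds DNA at the fork, had ratios above 0 in all 6 genes. Of these, 5 were called higher in replicate 2, beside 12.8% of all genes tested. Mcm7 led with 79.1 TPM in replicate 2 and 72.2 TPM in replicate 1, followed by Mcm6 with 56.6 TPM in replicate 2, against 49.9 TPM in replicate 1. The other 4 subunits lay close together. Mcm4 had 32.5 TPM in replicate 2 and 24.2 TPM in replicate 1, and Mcm2 had 30.1 TPM in replicate 2 and 24.8 TPM in replicate 1. Mcm5 had 24.9 TPM in replicate 2 and 19.4 TPM in replicate 1, and Mcm3 had 20.5 TPM in replicate 2 and 18.0 TPM in replicate 1. Highest and lowest subunit differed by 3.92-fold in mean TPM, although the ring holds 1 copy of each. Mcm4 (chromosome 16, 15623897 to 15637400, GRCm38) had 1627 reads in replicate 2 and 1906 in replicate 1. Its log2 ratio of 0.37 ± 0.05 had the smallest p of the 49 genes (exact binomial test, adjusted p = 2.27e-12). Mcm5 had a ratio of 0.30 ± 0.06 and Mcm2 one of 0.22 ± 0.05, while Mcm6 and Mcm7 were each at 0.13 ± 0.04. Mcm3, at 0.17 ± 0.07, was the subunit that did not pass (adjusted p = 0.085, exact binomial test). The summed log2 ratio was 0.20, with an interval of 0.17 to 0.24.

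Promoter sequence was examined because many of these genes are textbook E2F targets. A promoter here is the RefSeq window (GRCm38.p6) from 250 bases before to 50 after a transcription start, 300 bases in all. The table matched 40 of the 49 genes with 51 windows, and the other 9 genes were Gmnn, Mcm4, Gins1, Gins2, Gins4, Prim2, Pole, Rfc2 and Ccne2. The E2F words searched were TTTCCCGC, TTTGGCGC, TTTCGCGC and TTTGCCGC, on both strands. Words may overlap each other, and 1 of 23 overlapped a CCAAT box. Among MCM2-7 genes, 4 of the 5 in the table held a word, and Mcm2 did not. Their windows follow, 5′ to 3′ on the gene's strand with the words in capitals, to show where the words lie relative to the start. Added are Pole2, the gene with the largest ratio, and Rfc3, with a word before and a word at its start.
Mcm3, chr1:20820263-20820562, minus strand: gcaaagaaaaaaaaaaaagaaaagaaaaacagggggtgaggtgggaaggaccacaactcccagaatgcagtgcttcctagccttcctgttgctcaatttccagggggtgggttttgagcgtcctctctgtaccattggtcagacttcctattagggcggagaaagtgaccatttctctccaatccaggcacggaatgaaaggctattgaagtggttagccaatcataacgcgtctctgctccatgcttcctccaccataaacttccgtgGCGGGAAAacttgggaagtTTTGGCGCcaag
Mcm5, chr8:75109259-75109558, plus strand: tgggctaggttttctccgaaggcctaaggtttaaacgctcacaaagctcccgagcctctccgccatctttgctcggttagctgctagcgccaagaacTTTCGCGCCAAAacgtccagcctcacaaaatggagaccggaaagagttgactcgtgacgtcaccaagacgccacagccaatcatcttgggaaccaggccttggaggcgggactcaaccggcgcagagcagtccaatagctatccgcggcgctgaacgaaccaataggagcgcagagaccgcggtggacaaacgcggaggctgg
Mcm6, chr1:128359656-128359955, minus strand: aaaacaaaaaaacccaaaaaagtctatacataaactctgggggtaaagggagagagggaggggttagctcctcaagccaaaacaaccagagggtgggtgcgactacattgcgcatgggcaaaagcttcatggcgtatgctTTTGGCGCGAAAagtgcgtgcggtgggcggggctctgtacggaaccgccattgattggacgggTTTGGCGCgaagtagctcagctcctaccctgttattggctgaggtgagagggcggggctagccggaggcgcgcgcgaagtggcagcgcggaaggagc
Mcm7, chr5:138171834-138172133, minus strand: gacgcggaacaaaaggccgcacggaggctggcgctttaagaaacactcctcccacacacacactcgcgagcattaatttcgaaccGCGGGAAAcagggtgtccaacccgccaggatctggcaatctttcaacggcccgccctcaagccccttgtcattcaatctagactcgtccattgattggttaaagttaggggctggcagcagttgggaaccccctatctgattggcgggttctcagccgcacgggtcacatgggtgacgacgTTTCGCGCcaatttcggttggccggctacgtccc
Pole2, chr12:69228141-69228440, minus strand: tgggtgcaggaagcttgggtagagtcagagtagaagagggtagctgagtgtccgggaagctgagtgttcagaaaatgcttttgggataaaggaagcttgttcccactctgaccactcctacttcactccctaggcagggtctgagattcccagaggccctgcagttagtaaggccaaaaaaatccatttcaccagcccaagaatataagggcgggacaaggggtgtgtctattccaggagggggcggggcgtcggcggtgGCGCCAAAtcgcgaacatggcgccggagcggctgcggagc
Rfc3, chr5:151651159-151651458, minus strand: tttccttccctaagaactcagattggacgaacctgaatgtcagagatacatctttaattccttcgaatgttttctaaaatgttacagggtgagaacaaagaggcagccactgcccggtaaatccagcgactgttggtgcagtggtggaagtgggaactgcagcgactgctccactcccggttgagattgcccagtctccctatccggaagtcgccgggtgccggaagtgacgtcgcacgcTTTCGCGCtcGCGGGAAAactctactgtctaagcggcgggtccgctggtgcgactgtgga
In Mcm5 and Mcm6 a pair of words on opposite strands overlaps, so 12 bases carry both.

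Of the 40 genes with a window, 16 held an E2F word, or 40% of genes. By window the share was 31.4% of the 51, against 2.26% of all 32851 windows and 3.70% of the 15576 windows of genes tested. The median GC content was 60% in the windows of replication genes and 60.3% in those of genes tested. Of the 23 words, 14 began within 50 bases of the start, and 10 lay on the gene's strand. TTTGCCGC did not occur in these windows. The CCAAT box, a common promoter element, was in 56.9% of the 51 windows and in 37.3% of the windows of genes tested. The 16 genes were Orc1, Orc3, Cdc6, Cdt1, Mcm3, Mcm5, Mcm6, Mcm7, Gins3, Pola1, Pold1, Pole2, Rfc3, Lig1, Uhrf1 and Dnmt1. Of these 16 genes, 7 were called higher in replicate 2. Among the 24 genes with a window and no word, 7 were, beside 12.8% of all genes tested. The 2 sets differ in size, and the difference between them was not tested. Median log2 ratios were 0.20 with a word and 0.13 without. A word in a window is a match of letters, and no binding was measured here.

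**Figure D2:**
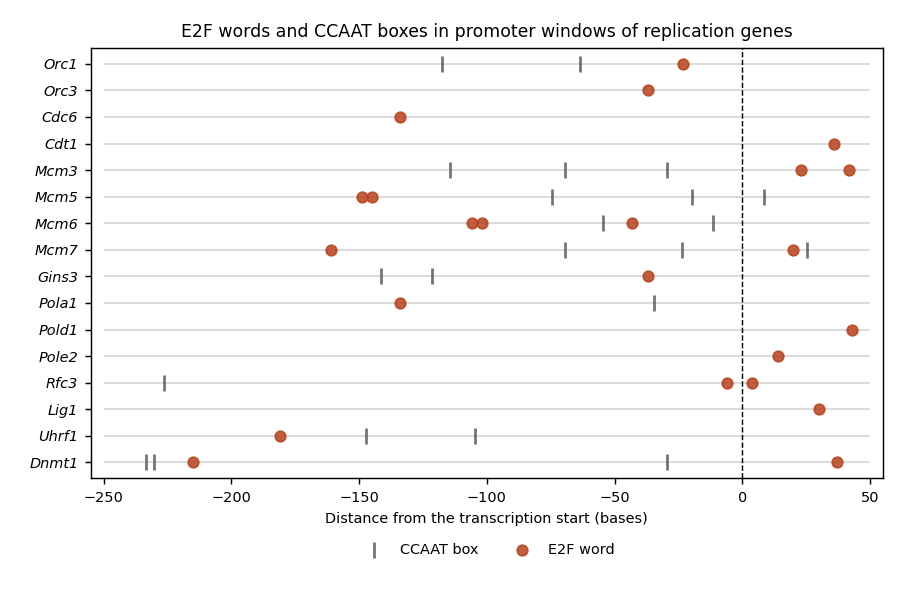
Centres of E2F words (circles) and CCAAT boxes (ticks) in the 16 windows of replication genes that hold an E2F word, by distance in bases from the transcription start (dashed line). Most circles lie close to the start, with 14 of 23 words beginning within 50 bases of it.

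Helicase activators spanned low and middling levels. Mcm10, a firing factor, had 3.65 TPM in replicate 2 and 2.94 TPM in replicate 1. Cdc45, which joins the helicase as it starts to unwind, had 8.26 TPM in replicate 2 and 7.16 TPM in replicate 1. Neither passed the test. The 4 GINS subunits, which form 1 complex, were unequal. Gins4 had 50.2 TPM in replicate 2 and 42.6 TPM in replicate 1, while Gins3 had 7.0 TPM in replicate 2 and 4.86 TPM in replicate 1. Gins1 had 16.2 TPM in replicate 2 and 13.9 TPM in replicate 1, and Gins2 had 16.1 TPM in replicate 2 and 14.9 TPM in replicate 1. From coding transcripts alone, Gins1 had 14.1 TPM in replicate 2 and 12.4 TPM in replicate 1, and Gins2 had 7.13 TPM in replicate 2 and 5.76 TPM in replicate 1. Gins2, Gins3 and Gins4 were called higher in replicate 2, with Gins3 at a log2 ratio of 0.47 ± 0.13 (exact binomial test, adjusted p = 0.0032). Gins2 shared 67.3% of its exon bases with Gse1 on the opposite strand, and the handling of strand is not given in the sources used here, so reads of this pair cannot be told apart. The summed log2 ratio of the 6 activators was 0.22, with an interval of 0.14 to 0.30.

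The polymerases were unequal as well. In the alpha-primase complex, which makes each primer, the catalytic subunit Pola1 had 3.99 TPM in replicate 2, against 3.29 TPM in replicate 1, the lowest of its 4 subunits. The primase subunit Prim1 was highest at 27.3 TPM in replicate 2 and 24.1 TPM in replicate 1, while Prim2, the other primase subunit, had 17.9 TPM in replicate 2 and 16.1 TPM in replicate 1. Pola2, the second subunit of the polymerase, had 14.5 TPM in replicate 2 and 12.5 TPM in replicate 1. None of the 4 passed the test, and their summed log2 ratio was 0.15, with an interval of 0.06 to 0.24. Polymerases delta and epsilon copy the lagging and the leading strand. For delta, the catalytic Pold1 had 20.7 TPM in replicate 2 and 17.8 TPM in replicate 1. Its partner Pold2 had 40.0 TPM in replicate 2 and 44.5 TPM in replicate 1, one of 2 genes with a lower TPM in replicate 2. Neither passed the test. Both epsilon genes among the 49 did, where 12.8% of all genes tested were called higher in replicate 2. Pole3 and Pole4, epsilon subunits outside the 49, had log2 ratios of -0.01 ± 0.05 and 0.03 ± 0.04 and did not pass. Pole, the catalytic subunit, had 6.01 TPM in replicate 2 and 4.54 TPM in replicate 1, a log2 ratio of 0.31 ± 0.11 (exact binomial test, adjusted p = 0.032). Its partner Pole2 (chromosome 12, 69201773 to 69228195, GRCm38) had 4.85 TPM in replicate 2 and 2.88 TPM in replicate 1, from 111 reads in replicate 2 and 104 in replicate 1. With a log2 ratio of 0.69 ± 0.20 (1.62-fold; exact binomial test, adjusted p = 0.0036), Pole2 was the only one of the 49 called at 1.5-fold or more. Its exons share 8.50% of their bases with Gm49384 on the same strand.

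The clamp and its loader were the most abundant group, with a median of 43.4 TPM. Pcna, the ring that holds polymerases on DNA, was the highest of all 49 genes, with 96.9 TPM in replicate 2 and 82.8 TPM in replicate 1. Among the 5 loader subunits, Rfc2 had 93.2 TPM in replicate 2 and 80.7 TPM in replicate 1, and Rfc5 was lowest with 27.3 TPM in replicate 2 and 22.8 TPM in replicate 1. Rfc3 had 53.6 TPM in replicate 2 and 47.0 TPM in replicate 1, and Rfc4 had 37.8 TPM in replicate 2 and 35.4 TPM in replicate 1. Pcna and Rfc2 were called higher in replicate 2, at log2 ratios of 0.16 ± 0.04 and 0.15 ± 0.04. Rfc1, Rfc3 and Rfc5 had ratios between 0.06 and 0.10, and Rfc4 one of -0.11 ± 0.08, none of which passed. In Rfc1, TPM and read ratios parted. It had 37.6 TPM in replicate 2 and 29.6 TPM in replicate 1, yet a log2 read ratio of 0.06 ± 0.06. TPM divides reads by an effective length that depends on how they were assigned to isoforms.

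Replication protein A, the trimer that coats single-stranded DNA, had the closest levels among groups of 3 or more genes, with 1.98-fold between highest and lowest. Rpa3 had 65.1 TPM in replicate 2 and 55.8 TPM in replicate 1, and Rpa1 had 38.6 TPM in replicate 2 and 37.7 TPM in replicate 1. Rpa2, with 34.4 TPM in replicate 2 and 26.6 TPM in replicate 1, was the subunit that passed (log2 ratio 0.25 ± 0.07; exact binomial test, adjusted p = 0.0023). Okazaki fragments, the pieces of the lagging strand, are trimmed by the flap nuclease Fen1 and sealed by the ligase Lig1. Fen1 had 25.3 TPM in replicate 2 and 23.7 TPM in replicate 1, and Lig1 had 28.4 TPM in replicate 2 and 23.5 TPM in replicate 1. Neither passed, and their means differed by 1.06-fold. Fen1 shared 78.8% of its exon bases with the antisense gene Gm10143, which had 77.9 reads in replicate 2 and 71.0 in replicate 1. Fen1 had 761 reads in replicate 2 and 1124 in replicate 1. Reads in the shared bases cannot be told apart without strand.

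In nucleotide supply 3 of 4 genes were called higher in replicate 2, and in maintenance methylation both were, beside 12.8% of all genes tested. Rrm1 and Rrm2, the subunits of ribonucleotide reductase that makes deoxyribonucleotides, had near-equal levels. Rrm1 had 38.3 TPM in replicate 2 and 31.5 TPM in replicate 1, and Rrm2 had 47.4 TPM in replicate 2 and 39.2 TPM in replicate 1. Both passed, at log2 ratios of 0.22 ± 0.04 and 0.20 ± 0.05. Tk1, the thymidine kinase of the salvage pathway, had 18.4 TPM in replicate 2 and 12 TPM in replicate 1, and passed at 0.43 ± 0.12 (exact binomial test, adjusted p = 0.0022). Tyms, which makes thymidylate, did not pass, at 48.7 TPM in replicate 2 and 38.6 TPM in replicate 1. Uhrf1, which finds hemimethylated DNA behind the fork, had 20.9 TPM in replicate 2 and 15.0 TPM in replicate 1. Its log2 ratio was 0.43 ± 0.06 (exact binomial test, adjusted p = 3.33e-10). Dnmt1, the methyltransferase that Uhrf1 recruits, had 42.8 TPM in replicate 2 and 35.0 TPM in replicate 1, a ratio of 0.22 ± 0.03 (exact binomial test, adjusted p = 1.43e-09). Summed over reads, this pair had the largest log2 ratio of the 12 groups, 0.27 with an interval of 0.21 to 0.33.

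The G1/S regulators were low, and split. E2f1, an activator of S-phase genes, had 4.6 TPM in replicate 2 and 4.75 TPM in replicate 1, with a log2 ratio of -0.10 ± 0.14. Ccne1, cyclin E1, which activates Cdk2, had 13.8 TPM in replicate 2 and 13.7 TPM in replicate 1. Its relative Ccne2 had 12.5 TPM in replicate 2 and 9.59 TPM in replicate 1, and was called higher in replicate 2 (log2 ratio 0.28 ± 0.09; exact binomial test, adjusted p = 0.011). Ccne2 shares 17.4% of its exon bases with Ints8 on the opposite strand. The difference between these cyclins was not tested.

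**Figure D3:**
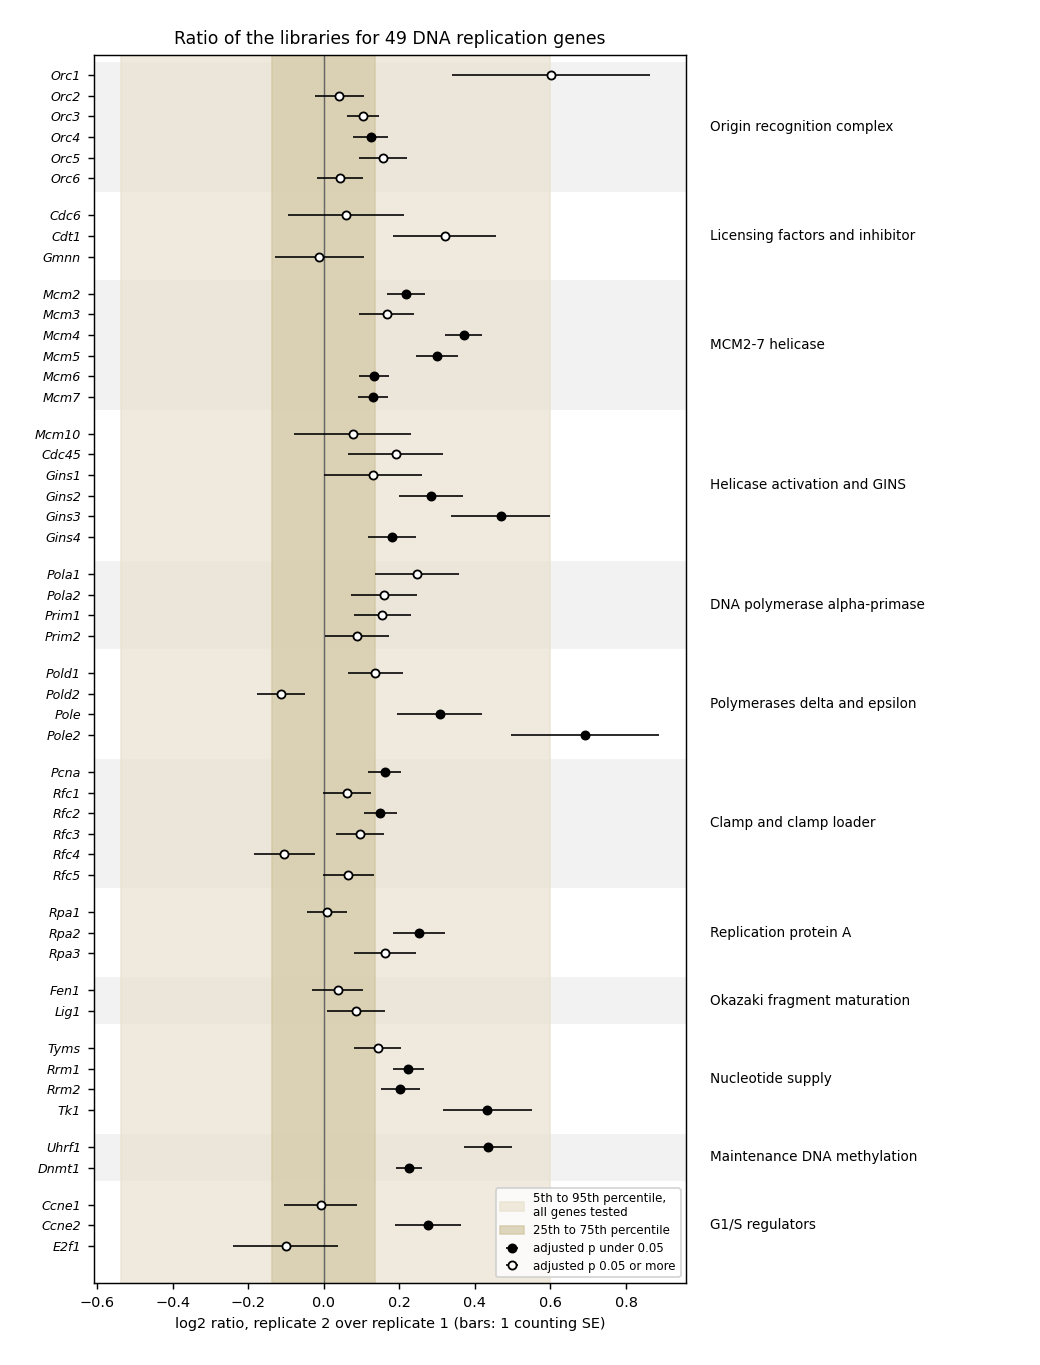
Log2 ratio of replicate 2 over replicate 1 for each of the 49 genes, with bars of 1 counting SE, filled points for an adjusted p under 0.05, and bands from the 25th to the 75th and from the 5th to the 95th percentile of all genes tested. The 20 filled points all lie above 0, and 28 genes lie above the 75th percentile of all genes tested (0.13), yet only Orc1 and Pole2 lie beyond the 95th (0.60).

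All 12 groups had a summed ratio above 0, from 0.06 for Okazaki fragment maturation to 0.27 for maintenance methylation, and in 4 of them the 95% counting interval reached below 0. Exons of 18 of the 49 genes share bases with another gene, and beyond those named above the overlap exceeded 10% for Orc2 with Nif3l1 (29.8%), Rfc2 with Lat2 (15.1%), Rfc4 with Eif4a2 (12.7%), Orc1 with Gm12743 (10.8%) and Rfc5 with Wsb2 (10.7%). Among the 31 genes without such overlap, 12 (38.7%) were called, all higher in replicate 2, beside 40.8% of the 49 and 12.8% of all genes tested. Their median log2 ratio was 0.16. Unequal subunit levels were common: in 7 of 12 groups the highest gene exceeded the lowest by more than 3-fold in mean TPM. Part of a gene's TPM can come from transcripts not annotated as coding, so levels were also taken from transcripts annotated as coding alone. On that scale Orc4 stood at 28.0 TPM as a mean of both libraries, and Orc3 led its complex at 46.1 TPM, 40.1-fold above Orc1. Mcm7 and Mcm3 differed by 4.96-fold, and Tyms, at 5.14 TPM, was the lowest gene of nucleotide supply.

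Transcript classes differed widely between genes. The 49 genes had 238 annotated transcripts, and 9 genes had a single one. A coding transcript held the largest share of TPM in 45 genes by the mean of the libraries, and the median coding share was 95.7% in replicate 2 and 94.8% in replicate 1. For Tyms the coding transcript held 11.5% of TPM in replicate 2 and 12.2% in replicate 1. The largest share was Tyms-205, annotated for nonsense-mediated decay, with 39.6% in replicate 2 and 40.5% in replicate 1. By reads, which unlike TPM are not corrected for length, the coding transcript of Tyms held 27.0% in replicate 2 and 26.2% in replicate 1. The retained-intron form Tyms-206 led by reads with 28.9% in replicate 2 and 32.3% in replicate 1. Orc4 had 33.9% coding TPM in replicate 2 and 34.7% in replicate 1, and the rest came from processed transcripts. Retained-intron forms held more than 20% of TPM in both libraries in Mcm3, Mcm10, Gins2, Rfc5, Rpa1, Tyms and Tk1. For Tk1 they held 42.4% in replicate 2 and 32.0% in replicate 1. Total RNA includes unspliced transcripts, whose part in these shares was not tested. Most Rfc1 transcripts, 95.6% of TPM in replicate 2 and 88.0% in replicate 1, were not in the annotation used for names and have no class here.

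For some genes the division of reads among isoforms differed widely between the libraries. The top transcript differed between libraries in Orc4, Gins2, Pole and Fen1. In Lig1 the coding transcript Lig1-210 held 16.7% of TPM in replicate 2 and 0.02% in replicate 1. Its near equal in length, the processed transcript Lig1-203, held 0.02% in replicate 2 and 16.6% in replicate 1. Lig1 as a gene had a log2 ratio of 0.09 ± 0.08 and did not pass. In Gins2, the 511-base retained-intron transcript Gins2-204 held 43.6% of TPM in replicate 2 and 54.0% in replicate 1, from 41.4 of 530 reads in replicate 2 and 75.2 of 659 in replicate 1. In Uhrf1, the coding transcript Uhrf1-203 held 30.5% of TPM in replicate 2 and 11% in replicate 1. No test was made on transcripts.

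**Figure D4:**
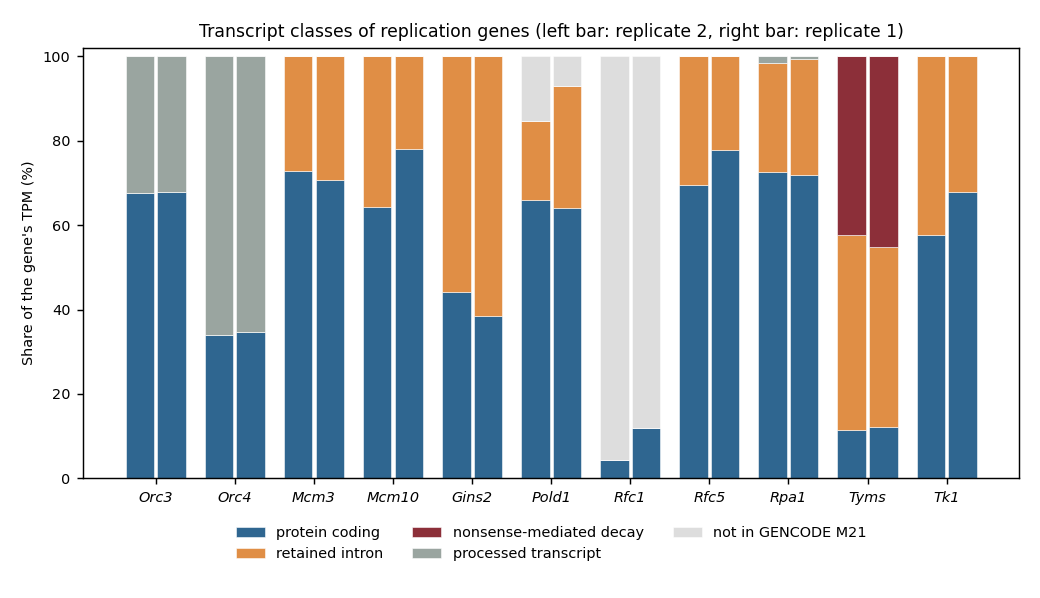
Share of each gene's TPM by annotated transcript class, for the 11 replication genes with less than 80% coding TPM in both libraries, with replicate 2 as the left and replicate 1 as the right bar. Tyms, Gins2, Orc4 and Rfc1 have less than 50% coding TPM in both bars, and Rfc1 is mostly outside the annotation.

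Other genes of replication and S phase also mostly had ratios above 0. Of 69 such genes, 67 reached 1 TPM in both libraries, and 52 had a ratio above 0, with a median log2 ratio of 0.17. By the exact binomial test 19 (27.5%) were higher in replicate 2 and 3 (4.35%) lower, beside 12.8% and 11.8% of all genes tested. The highest were the thymidylate kinase Dtymk at 118 ± 2.8 TPM (SD, n = 2), the histone mRNA binding protein Slbp at 94.7 ± 10.8 TPM, and the polymerase epsilon subunit Pole4 at 93.6 ± 4.3 TPM. The E2F partner Tfdp1 had 81.2 ± 4.7 TPM and the histone chaperone Nasp 70.6 ± 4.5 TPM. The lowest were Rmi2, a partner of the Bloom helicase, at 0.46 ± 0.06 TPM, the firing factor Ticrr at 1.02 ± 0.15 TPM and the recombination gene Brca2 at 1.43 ± 0.18 TPM. Dtl, a subunit of the ligase that destroys Cdt1 in S phase, had 9.12 TPM in replicate 2 and 4.85 TPM in replicate 1. Its log2 ratio of 0.89 ± 0.09 exceeded that of every one of the 49 (exact binomial test, adjusted p = 3.06e-19). The nuclease Exo1 (0.59 ± 0.15), the repressor E2f7 (0.53 ± 0.11), the stress-induced reductase subunit Rrm2b (0.48 ± 0.09) and Cdca7 (0.46 ± 0.07), a partner of the chromatin remodeller Hells, followed. Lower in replicate 2 were Chtf8, of an alternative clamp loader (log2 ratio -0.24 ± 0.04), and Dut, the enzyme that destroys dUTP (-0.19 ± 0.07). The third was Rnaseh2a, the catalytic subunit of RNase H2 (-0.24 ± 0.08).

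Genes outside S phase also differed between the libraries. Among mitotic genes, 16 of 16 had a ratio above 0, with a median log2 ratio of 0.44. Of the 16, 12 (75%) were called higher in replicate 2, beside 12.8% of all genes tested. Top2a had 45.9 TPM in replicate 2 and 33.9 TPM in replicate 1, and Mki67, the proliferation marker, had 6.73 TPM in replicate 2, against 4.42 TPM in replicate 1. Markers of neural progenitors had a median log2 ratio of 0.05, and those of neurons one of -0.06. Marker genes of tissues next to the neural tube had larger ratios. Skeletal muscle genes had ratios above 0 in 10 of 10, with a summed level of 230 TPM in replicate 2 and 130 TPM in replicate 1. Epidermal genes did in 7 of 8, with a sum of 29.0 TPM in replicate 2 and 13.0 TPM in replicate 1. Cartilage genes did in 7 of 7, with a sum of 188 TPM in replicate 2 and 133 TPM in replicate 1, and 1 of them, Sox9, is also a progenitor gene. No marker of these 3 lists was at 0 in both libraries. The median log2 ratio also moved with effective length over all genes tested. It was -0.07 below 1000 bases, -0.03 from 1000 to 2000, 0.003 from 2000 to 3000 and 0.04 from 3000 bases on. For the replication genes of these classes it was 0.06 (4 genes), 0.15 (20 genes), 0.13 (16 genes) and 0.25 (9 genes). The part of mitotic genes, neighbouring tissue and length in the ratios of the 49 genes was not tested.

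**Figure D5:**
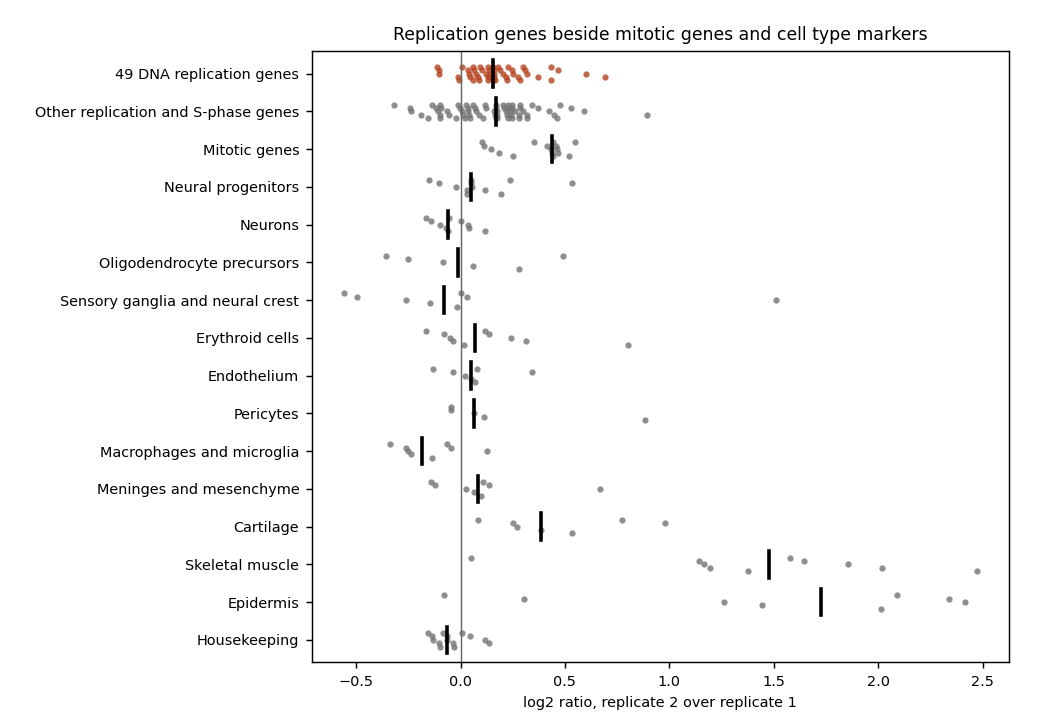
Log2 ratio of replicate 2 over replicate 1 for each gene of the replication, mitotic, cell type marker and housekeeping lists, with a black bar at the list's median. The 49 replication genes (0.15) and the other replication genes (0.17) lie below the mitotic genes (0.44), and skeletal muscle (1.48) and epidermis (1.73) lie farthest to the right.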

How the data were processed

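Total RNA of 2 libraries was used from the authors' deposited gene and transcript tables, 1 of each per library. Per the deposited README, reads were set against mm10 with GENCODE M4. Which aligner, quantifier and strand setting were used was not given in the sources used here. Expected counts, as deposited, are reads estimated per feature that need not be whole, and they were rounded for tests. The deposited TPM correct for length over all features, and the 96 spike-ins held 12.6% of them in replicate 2 and 13.03% in replicate 1. The deposited FPKM, posterior mean counts and posterior mean TPM were used for alternatives. Isoform percent, as the authors deposited it, gives the share of a gene's TPM held by 1 transcript. The deposited posterior SD was at most 2.61% of a count for these genes.

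Names, classes and coordinates came from GENCODE M21 (GRCm38), which named 42462 genes. Mouse genes alone entered the tests. The 26248 features with a number as name held 2.69e-05% of reads in replicate 2 and 4.40e-05% in replicate 1 and were left out. Genes whose rounded counts averaged at least 10 were compared, replicate 2 against replicate 1, by an exact binomial test (two-sided) with TMM effective library sizes (edgeR 4.0.16, R 4.3.3) and Benjamini-Hochberg adjustment over 17428 genes. Log2 ratios have 0.5 added to each count. Their SE and the 95% exact intervals cover counting error only, so a call compares these libraries and not conditions. With 1 library on each side, no test of biological variation could be made. The test was checked on simulated data that carried counting noise only. DESeq2 1.42.0 gave alternative size factors, and other steps used Python 3.11.15, pandas 2.3.3, SciPy 1.17.1 and matplotlib 3.10.9. All 49 genes are named, by group. Of 69 further replication genes, the 5 highest and 3 lowest by mean TPM and the 5 of largest ratio among those called are named, and the genes called lower were added after their values were seen. Genes, lists and tests were chosen with earlier results of these data known.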

Additional observations from a re-analysis of the deposited data

How the results depend on the processing

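The 20 genes called higher were also called with other settings: DESeq2 size factors, posterior mean counts and a mean count of 50 or more each gave the same 20 genes, total gene counts added 2, and no filter on low counts lost 1, Orc4. Scaling by spike-in counts called 32 of 49, all higher in replicate 2, and raised the median log2 ratio of the 49 genes to 0.24 and that of all genes tested to 0.09, with 26.9% of all genes tested higher in replicate 2. With a fold of 2 required, 0 of the 49 and 0 of the other 69 were called. Without the 18 genes whose exons overlap another gene, an alternative added after the data were seen, 12 of 31 genes (38.7%) were called at a median ratio of 0.16, so the lower count came from fewer genes. The median ratio of deposited TPM (0.1 added) was 0.23, against 0.05 over all genes tested. The cause of the shifts under spike-in scaling and TPM was not tested. The median level of the 49 genes was 28.7 TPM when TPM were rescaled to mouse genes, and 27.3 to 23.5 TPM with either library alone. All 12 groups stayed above 0 under each scaling tried. No alternative reversed the ratio of a called gene or of a group. No paired analysis was possible because there is a single group. With reads of 59.6 to 4162 per gene in replicate 1, counting error sets what the low genes, such as Orc1, can show.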
